A study of Mus musculus with 7 samples.

Results

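The genes described here are 37 astrocyte genes of mouse motor cortex, 27 of them tied to the resting functions and identity of astrocytes, 3 metallothioneins and 7 genes known to rise when astrocytes become reactive. Their symbols were taken from a list of known astrocyte genes, chosen with earlier results of these data known. The rule sets no threshold on measured values, and all 37 were found among the 54532 genes of the deposited count table. Motor cortex RNA-seq gave 7 libraries, 3 of genotype WT and 4 of genotype cKO, a conditional knockout. Every mouse, WT and cKO alike, received the virus GA100 in the left and right lateral ventricles on postnatal day 0, and tissue was taken 3 months after injection, following behavioural tests. The series title concerns TIA1 and stress granules in mice with C9orf72 poly-GA, a dipeptide repeat protein of inherited motor neuron disease. The labels name neither the deleted gene nor the Cre driver, the promoter of the virus or the cells infected, and no uninjected mice were analysed here. The labels do not state that each sample came from a separate mouse, so p-values measure the spread between these samples, which may be technical.

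Astrocytes take up glutamate released at synapses, convert it to glutamine, buffer extracellular potassium, and form a network of cells joined by gap junctions, with endfeet on blood vessels that are rich in water channels. Under injury, infection or protein aggregation they enlarge and raise intermediate filament genes such as Gfap and Vim, together with genes driven by cytokine receptors and the transcription factor STAT3. Metallothioneins are small cysteine-rich proteins that bind zinc and copper, and astrocytes are a main site of their expression in brain.

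Library totals ran from 15181390 to 16463721 counts, and 16308 genes passed the filter on low counts, among them all 37 members. Levels of a gene across libraries are given as CPM, its counts scaled by library size with factors from the TMM method. A sample of cortex can carry neighbouring tissue, and some libraries stood apart in this respect. Cdhr1, a gene of olfactory bulb projection neurons, had 103 CPM in cKO replicate 3 and 1.06 to 2.53 CPM in the other 6 libraries. Ttr, the transthyretin gene of choroid plexus, was highest in cKO replicate 4, with 154 CPM, and the striatal receptor gene Drd2 was highest in cKO replicates 2 and 3, with 75.0 and 58.8 CPM. The cortical neuron genes Slc17a7 and Tbr1 were abundant in all 7 libraries. Tia1, which the title names, had 60.6 to 95.8 CPM in WT and 72.7 to 81.9 CPM in cKO, so its level over the whole gene did not separate the groups. Groups are therefore called by their labels.

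Promoter sequence is shown for 4 members, the 3 metallothionein genes, which lie next to each other and have very different levels, and Gfap, the most used marker of reactivity. Sequences are from RefSeq on GRCm38.p6, 5′ to 3′ on the strand of the gene, from 250 bases before the annotated start to 30 bases after it; 32 of the 37 members had an entry. Capitals mark the core of the metal response element (TGCNCNC, either strand), the site of the zinc-sensing factor MTF1, in the metallothionein genes, and the STAT site (TTCNNNGAA, which reads alike on both strands) in Gfap.
Mt3, chr8:94152357-94152636, forward strand: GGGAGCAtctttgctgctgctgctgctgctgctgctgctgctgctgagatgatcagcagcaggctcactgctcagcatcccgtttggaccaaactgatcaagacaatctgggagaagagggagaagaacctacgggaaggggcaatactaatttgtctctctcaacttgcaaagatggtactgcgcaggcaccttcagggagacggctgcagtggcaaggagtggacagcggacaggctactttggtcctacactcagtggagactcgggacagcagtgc
Mt2, chr8:94172368-94172647, forward strand: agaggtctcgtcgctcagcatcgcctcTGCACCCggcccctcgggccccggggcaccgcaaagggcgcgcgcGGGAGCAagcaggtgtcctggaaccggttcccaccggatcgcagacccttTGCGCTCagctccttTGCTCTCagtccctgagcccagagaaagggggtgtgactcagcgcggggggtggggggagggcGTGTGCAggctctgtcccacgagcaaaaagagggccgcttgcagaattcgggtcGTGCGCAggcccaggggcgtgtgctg
Mt1, chr8:94178839-94179118, forward strand: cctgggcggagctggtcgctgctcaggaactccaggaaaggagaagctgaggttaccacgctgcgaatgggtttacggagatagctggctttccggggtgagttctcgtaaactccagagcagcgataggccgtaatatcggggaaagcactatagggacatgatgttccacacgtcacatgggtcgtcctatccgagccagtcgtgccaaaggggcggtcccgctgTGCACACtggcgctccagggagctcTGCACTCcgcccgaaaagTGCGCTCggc
Gfap, chr11:102897171-102897450, reverse strand: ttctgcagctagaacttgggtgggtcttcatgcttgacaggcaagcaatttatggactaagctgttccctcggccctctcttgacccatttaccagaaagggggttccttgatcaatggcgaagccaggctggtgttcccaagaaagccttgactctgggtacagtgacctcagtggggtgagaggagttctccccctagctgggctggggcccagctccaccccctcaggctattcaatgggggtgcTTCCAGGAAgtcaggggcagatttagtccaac
Mt2 held 6 matches to the metal response core, 3 on each strand, a number that 0.155% of all 32851 RefSeq promoters of the same length reached. Mt1 held 3, all forward and all near its start; 6.11% of promoters held 3 or more. Mt3 held 1, as 48.5% of promoters hold at least 1. The STAT match of Gfap begins 2 bases before the start that RefSeq gives, which lies inside the gene as the count table draws it. The STAT site was matched in promoters of 5 members, namely Gfap, Acsbg1, Aldoc, Ntsr2 and Slc1a3, and in 7.83% of all promoters. The 3 metallothionein promoters held 0 STAT matches and that of Gfap 0 metal response matches, so capitals of both kinds never overlap here. A match describes letters and does not show that a factor binds there. Matches outside the stretch shown were not counted, and those of Mt1 lie close to the end of its stretch.

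Levels between genes were compared as the authors' FPKM, fragments scaled by gene length and by library depth. The order was led by Glul, glutamine synthetase, with a mean of 469 FPKM over the 7 libraries, then Slc1a2, the main glutamate transporter of forebrain astrocytes (306 FPKM), and Clu, the secreted chaperone clusterin (201 FPKM). Ranges over libraries did not overlap between these leaders: Glul had 406 to 508 FPKM, Slc1a2 280 to 327 FPKM and Clu 190 to 212 FPKM. Ndrg2 and the glycolytic enzyme gene Aldoc followed at 178 and 169 FPKM, with ranges that overlapped (151 to 229 and 148 to 192 FPKM). Gfap stood at a mean of 63.3 FPKM, with 42.7 FPKM in the lowest and 75.7 FPKM in the highest library, next to Slc1a3 at 68.2 FPKM. At the bottom were 4 members with a mean under 1 FPKM, all of them reactive genes: Timp1, Osmr, Lcn2 and Cd44, at 0.827, 0.786, 0.711 and 0.362 FPKM. Neighbours in this order had overlapping ranges, while Osmr, at 0.578 FPKM or more, lay above Cd44, at 0.467 FPKM or less, in each library. Gfap was thus well expressed in both genotypes, while Timp1 had only 5 to 21 counts a library.

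**Figure D1:**
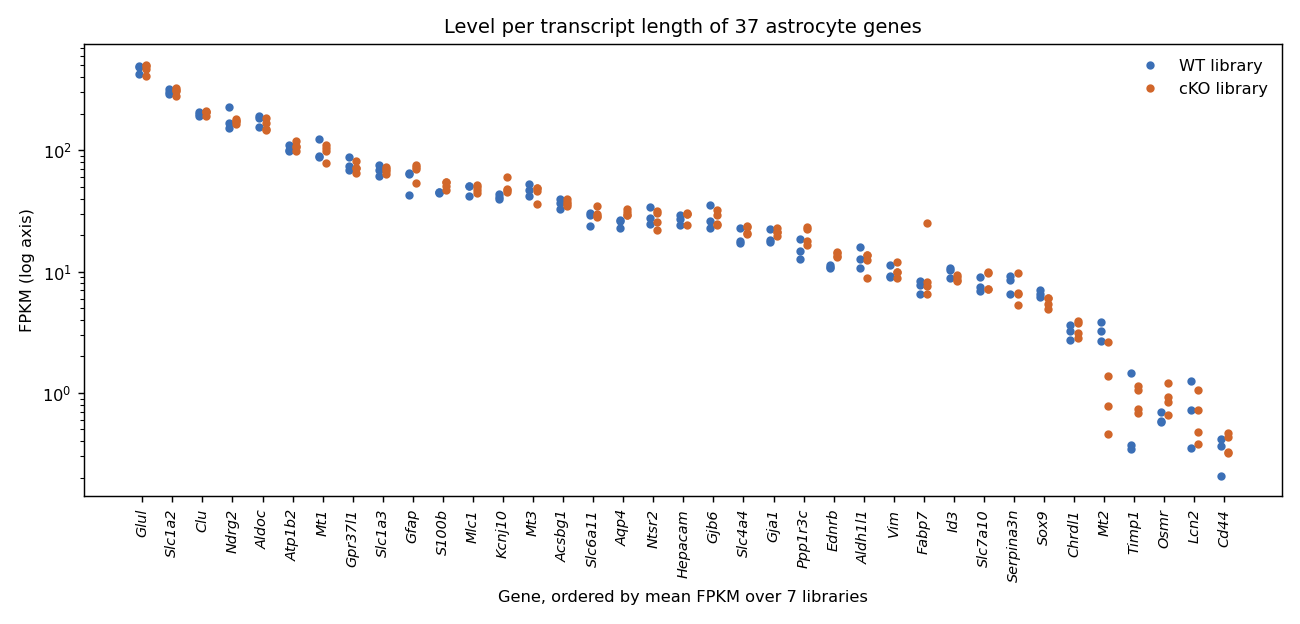
Authors' FPKM (log axis) of the 37 astrocyte genes in each of 7 libraries, ordered by mean, with blue points for WT and orange points for cKO. Glul and Slc1a2 lead, Cd44 is lowest, and the WT and cKO points of most genes lie over one another.

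The comparison the labels imply is cKO against WT under the same virus. In edgeR's quasi-likelihood test, 0 of the 37 members had an adjusted p under 0.05, as was true of 0% of the 16308 genes tested, and the smallest adjusted p of a member was 0.669, for Ednrb. DESeq2 and limma-voom called 0 members as well, where DESeq2 called 4 genes in all (0.0245%) and limma-voom 0. The smallest adjusted p of a member in DESeq2 was 0.134. At an unadjusted p under 0.05, 6 members had higher values in cKO (16.2% of 37), where 4.22% of all genes tested did: Ednrb, Aqp4, Kcnj10, Osmr, Ppp1r3c and S100b. In the other direction stood Mt2 alone (1 of 37), where the share of all genes was 2.91%. Both directions together made 7.14% of all genes tested. The members were chosen with earlier results of these data known, so this share and those below are not independent of these data. The count of 6 dropped to 3 without WT replicate 1 and to 3 without WT replicate 3. The count of 1 became 0 without WT replicate 1, 2 without cKO replicate 2 and 3 without cKO replicate 3. Of the 37 log2 fold changes, cKO minus WT here and throughout, 24 were positive and 13 negative, with a median of 0.04; over all genes tested 51.8% were positive and the median was 0.01. The median of the members ranged from 0.0050 without cKO replicate 1 to 0.092 without WT replicate 2. In each library the median over members of log2 CPM minus the gene mean was also taken. Its SD between libraries of the same group, pooled over both groups, was 0.0887.

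**Figure D2:**
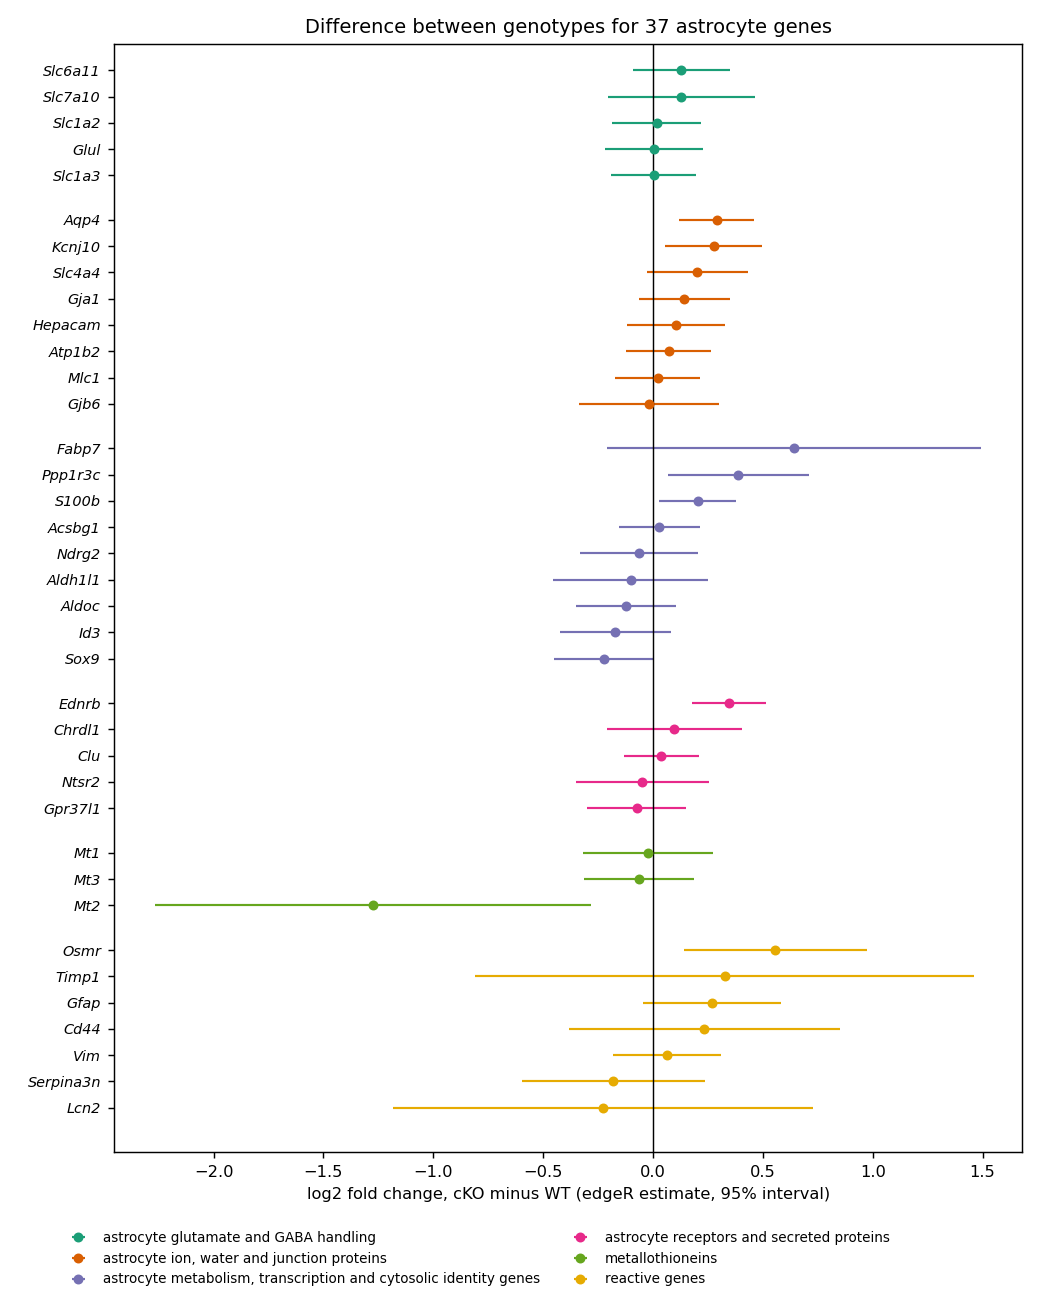
Log2 fold change (cKO minus WT, edgeR estimate) with its 95% interval for each of the 37 astrocyte genes, coloured by role. The intervals of Ednrb, Aqp4, Kcnj10, Osmr, Ppp1r3c and S100b lie above 0 and that of Mt2 below it, before any adjustment for the number of genes, and the 5 genes of glutamate and GABA handling sit at 0.00 to 0.13.

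The 5 genes of transmitter uptake and conversion had log2 fold changes between 0.00 and 0.13. Slc1a2 (ENSMUSG00000005089, chromosome 2, 102658659 to 102790784 on mm10, the build of every gene position here) had 3940, 4257 and 3822 CPM in WT replicates 1 to 3 and 4345, 4059, 3674 and 4135 CPM in cKO replicates 1 to 4. The cKO values enclosed those of WT, and the log2 fold change was 0.02 ± 0.09 (SE), with a 95% interval from -0.19 to 0.22. Slc1a3, the other glial glutamate transporter, had 588, 646 and 518 CPM in WT and 579, 548, 617 and 597 CPM in cKO, all 4 within the WT range, at 0.00 ± 0.09 (SE). Glul averaged 1561 ± 136 CPM over 3 WT libraries and 1568 ± 161 CPM over 4 cKO libraries (± SD), at 0.01 ± 0.10 (SE). The 95% intervals of Slc1a3 and Glul ran from -0.19 to 0.20 and from -0.22 to 0.23. Values near 0 have no stable sign: with the RLE size factors of DESeq2 in place of TMM those of Slc1a3 and Glul were -0.0027 and -0.00075. Slc6a11, a GABA transporter, and Slc7a10, a transporter of small neutral amino acids such as serine and glycine, each had 0.13, with 95% intervals of -0.09 to 0.35 and -0.21 to 0.47. Annotated genes on the opposite strand overlap Slc1a2, Glul, Slc7a10, Slc6a11, Aldh1l1, Gfap, Timp1 and Cd44, and Gm37310 overlaps Slc1a3 on the same strand, so their counts are uncertain to that degree. Bulk tissue cannot tell fewer cells of a type from less RNA in each cell, which holds for every value here.

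Among the genes of ion, water and junction proteins, those for the endfoot channels had higher values in each cKO library than in any WT library. Aqp4, the water channel of astrocyte endfeet (ENSMUSG00000024411, chromosome 18, 15389394 to 15403684), had 131, 118 and 135 CPM in WT and 152, 158, 168 and 149 CPM in cKO. Its log2 fold change was 0.29 ± 0.08 (SE), with an unadjusted p of 0.00295 and an edgeR adjusted p of 0.679. Kcnj10, the inwardly rectifying potassium channel of glia (ENSMUSG00000044708, chromosome 1, 172341210 to 172374085), had 220, 238 and 216 CPM in WT and 326, 261, 243 and 257 CPM in cKO. The 4 cKO values lay above the 3 of WT, with cKO replicate 1 far above the others. Its log2 fold change was 0.28 ± 0.10 (SE; edgeR adjusted p = 0.694), and 0.17 without cKO replicate 1. Slc4a4, a sodium bicarbonate cotransporter, had 0.20 ± 0.11 (SE) with overlapping groups, 186 to 249 CPM in WT and 224 to 257 CPM in cKO. It was 0.33 without WT replicate 2 (unadjusted p = 0.00494), 0.12 without WT replicate 1 and 0.23 with the replicate block (unadjusted p = 0.0310).

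The gap junction genes had overlapping groups. Gja1, the main connexin of astrocytes, had 187, 230 and 181 CPM in WT and 222, 204, 217 and 237 CPM in cKO, at 0.14 ± 0.09 (SE). WT replicate 2 was as high as the upper cKO libraries, and without it the value was 0.25. Gjb6, the second astrocyte connexin, averaged 75.2 ± 17.8 CPM over 3 WT libraries and 74.2 ± 10.5 CPM over 4 cKO libraries (± SD), at -0.02 ± 0.15 (SE). Mlc1 and Hepacam, partners in a membrane complex whose loss causes a leukodystrophy with cysts, had 0.02 and 0.10. Atp1b2, a sodium pump subunit, had 0.07. Groups of these 3 genes overlapped.

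Ednrb had the smallest p of all members. It encodes the endothelin B receptor, carried by astrocytes and endothelium (ENSMUSG00000022122, chromosome 14, 103814625 to 103844402). Its levels were 48.2, 46.6 and 45.6 CPM in WT and 57.5, 61.6, 61.6 and 57.1 CPM in cKO. Each cKO library was above each WT library, and both groups were tight, with SD of 1.27 and 2.46 CPM. The log2 fold change was 0.34 ± 0.08 (SE; 95% interval 0.18 to 0.51; unadjusted p = 0.000747; edgeR adjusted p = 0.669). Leaving out 1 library at a time kept it between 0.32 and 0.36. Of the endothelial markers, 2 of 8 had positive values, and their summed level was 275 to 330 CPM in WT and 293 to 317 CPM in cKO. Their part in the Ednrb value was not tested. The other receptor and secreted protein genes had overlapping groups. Ntsr2 (a neurotensin receptor) and Gpr37l1 (an orphan receptor of glia) had -0.05 and -0.08, Chrdl1 (an inhibitor of bone morphogenetic proteins) 0.10 and Clu 0.04.

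Groups did not overlap for 6 of the 37 members (16.2%), where the share among all genes tested was 7.38%. The 4 with cKO above WT (3.97% of all genes) were Ednrb, Aqp4, Kcnj10 and S100b, and the 2 with cKO below WT (3.42% of all genes) were Sox9 and Mt2. S100b (ENSMUSG00000033208, chromosome 10, 76253853 to 76261159) encodes a calcium-binding protein found in astrocytes and also in part of the oligodendrocyte lineage. Its levels were 65.5, 68.0 and 67.2 CPM in WT and 82.3, 81.1, 74.7 and 70.1 CPM in cKO, at 0.20 ± 0.08 (SE; edgeR adjusted p = 0.694). The WT values were nearly equal, while cKO replicate 4 lay close to them. S100b shares its locus with Dip2a on the opposite strand, and reads of the 2 genes cannot be told apart without strand. Oligodendrocyte markers stood beside it: 12 of 12 had positive values, and their summed level was 4030 to 6254 CPM in WT and 4383 to 8686 CPM in cKO, highest in cKO replicate 2 and lowest in WT replicate 1 and cKO replicate 3. Their part in the values of S100b and Kcnj10, which oligodendrocytes also express, was not tested.

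**Figure D3:**
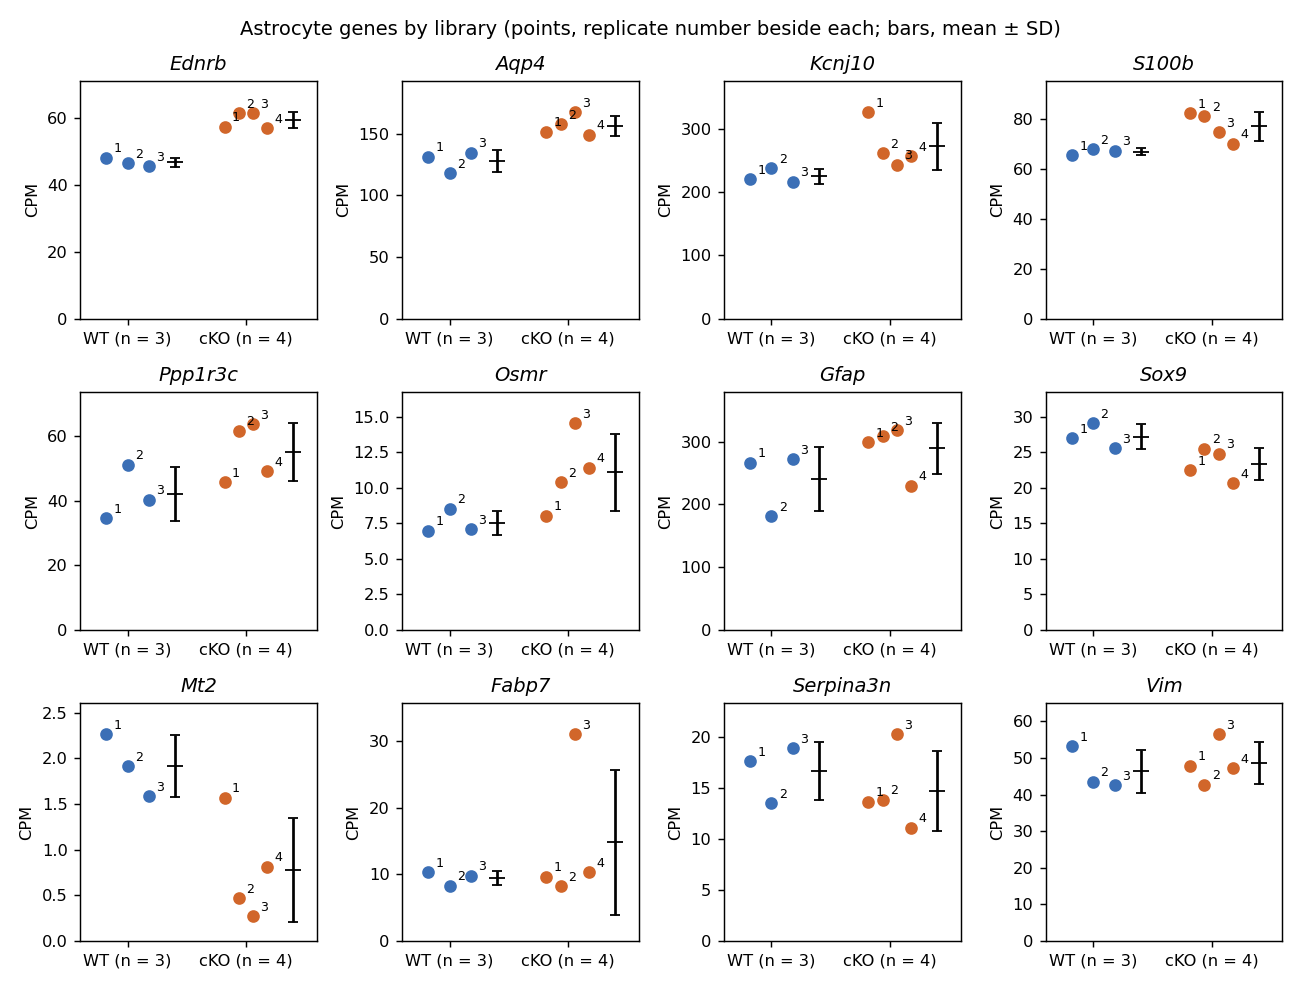
CPM in each library for 12 astrocyte genes, with the replicate number beside each point and the mean ± SD of each group as a black bar (WT n = 3, cKO n = 4; axes start at 0). Ednrb, Aqp4, Kcnj10 and S100b are higher in each cKO library than in any WT library, Sox9 and Mt2 are lower, and 1 library, cKO replicate 3, carries the high mean of Fabp7.

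Genes of metabolism and identity had no common direction, with 4 positive and 5 negative values. Aldh1l1, a folate enzyme used as a marker of all astrocytes, had 57.3, 72.9 and 48.1 CPM in WT and 62.5, 56.9, 40.0 and 62.3 CPM in cKO. These groups overlapped almost fully, at -0.10 ± 0.16 (SE). Ppp1r3c, a subunit that directs a phosphatase to glycogen (ENSMUSG00000067279, chromosome 19, 36731737 to 36736653), had 34.6, 51.1 and 40.3 CPM in WT and 45.8, 61.6, 63.7 and 49.2 CPM in cKO. WT replicate 2 lay above 2 of the cKO libraries, and the log2 fold change was 0.39 ± 0.15 (SE; edgeR adjusted p = 0.694). With no filter on low counts, edgeR called Ppp1r3c (adjusted p = 0.0401) and Fabp7 (adjusted p = 0.0138), and 198 genes in all. Sox9, a transcription factor of astrocyte fate (ENSMUSG00000000567, chromosome 11, 112782224 to 112787760), had 26.9, 29.1 and 25.6 CPM in WT and 22.4, 25.5, 24.8 and 20.6 CPM in cKO. Its groups parted by less than 0.1 CPM, at -0.22 ± 0.11 (SE; unadjusted p = 0.0561). Id3, a transcriptional inhibitor, Aldoc, Ndrg2 and the fatty acid enzyme gene Acsbg1 had -0.17, -0.12, -0.06 and 0.03, with overlapping groups.

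Fabp7, a fatty acid binding protein of immature and some mature astrocytes, was singled out after its values were seen. It had 10.3, 8.28 and 9.77 CPM in WT and 9.65, 8.18, 31.0 and 10.3 CPM in cKO, so 6 libraries were alike and cKO replicate 3 was high. The log2 fold change of 0.64 ± 0.39 (SE) became -0.017 without that library. Olfactory bulb markers were high in the same library: their summed level was 460 CPM there, 179 to 198 CPM in the other cKO libraries and 174 to 187 CPM in WT. Their part in the Fabp7 value was not tested.

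The metallothionein genes lie in a row on chromosome 8, with Mt3 18517 bases before Mt2 and Mt2 5513 bases before Mt1. Mt1 (94179082 to 94180327) and Mt3, the form named for growth inhibition in brain (94152607 to 94154146), had similar levels in both groups. Mt1 had 112, 155 and 109 CPM in WT and 139, 99.3, 123 and 132 CPM in cKO, at -0.02 ± 0.14 (SE). Mt3 had 55.6, 50.3 and 44.9 CPM in WT and 52.3, 38.8, 49.4 and 52.0 CPM in cKO, at -0.06 ± 0.12 (SE). Mt2 (94172664 to 94173568) was by far the lowest of the 3, at 2.15 FPKM against 99.2 FPKM for Mt1 and 45.8 FPKM for Mt3. It had 37, 31 and 24 counts in WT and 26, 7, 4 and 13 counts in cKO. In CPM these were 2.26, 1.91 and 1.58 against 1.57, 0.466, 0.271 and 0.815. WT replicate 3 and cKO replicate 1 were nearly equal, while the other 3 cKO libraries were below all of WT. The log2 fold change was -1.27 ± 0.46 (SE; 95% interval -2.27 to -0.28; edgeR adjusted p = 0.691). An annotated gene, Gm45774, overlaps Mt2 on the opposite strand.

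Reactive genes did not all share a direction either, with 5 positive and 2 negative values and a median of 0.23, against 0.01 over all genes tested. Gfap (ENSMUSG00000020932, chromosome 11, 102887336 to 102900912), the intermediate filament of astrocytes, had 267, 181 and 272 CPM in WT and 299, 309, 318 and 230 CPM in cKO. In cKO, replicates 1 to 3 were above all of WT, while replicate 4 was below WT replicates 1 and 3. The log2 fold change was 0.27 ± 0.15 (SE; 95% interval -0.05 to 0.58; edgeR adjusted p = 0.715), and it dropped to 0.092 without WT replicate 2, the lowest library. It was 0.37 without WT replicate 3 and 0.36 without cKO replicate 4 (unadjusted p = 0.0237). With the replicate number as a block it was 0.39, with an unadjusted p of 0.00777 and an edgeR adjusted p of 0.575. In that fit cKO replicate 4 has no WT library of its number, so it adds nothing to the blocked value. Vim, another filament gene, had 53.2, 43.5 and 42.5 CPM in WT and 47.9, 42.7, 56.5 and 47.2 CPM in cKO, at 0.07 ± 0.11 (SE). Its highest libraries, WT replicate 1 and cKO replicate 3, were also those with the most meningeal fibroblast transcripts (98.6 and 109 CPM summed over 11 markers, against 41.8 to 63.3 CPM in the other 5). Vim is expressed in fibroblasts and vessels too, and their part in it was not tested.

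Serpina3n, a secreted protease inhibitor raised in most forms of reactivity, had 17.6, 13.5 and 18.9 CPM in WT and 13.6, 13.8, 20.2 and 11.1 CPM in cKO. The groups overlapped, at -0.18 ± 0.19 (SE). The value was -0.38 without cKO replicate 3 (unadjusted p = 0.0225) and -0.074 without cKO replicate 4. Related genes of the same family lie beside it, and whether reads shared with them affected its counts was not tested. Lcn2, the iron-siderophore binding lipocalin, had 1.90, 0.926 and 3.30 CPM in WT and 1.93, 0.998, 2.77 and 1.25 CPM in cKO, at -0.23 ± 0.44 (SE). Leaving out WT replicate 3, its highest library, turned the value to 0.30. Osmr, the oncostatin M receptor subunit (ENSMUSG00000022146, chromosome 15, 6813577 to 6874969), had 6.98, 8.52 and 7.07 CPM in WT and 8.02, 10.4, 14.5 and 11.4 CPM in cKO. In cKO, replicates 2 to 4 were above all of WT, while replicate 1 was within its range, at 0.56 ± 0.19 (SE; unadjusted p = 0.0130, edgeR adjusted p = 0.679). Cd44, a hyaluronan receptor, and Timp1, an inhibitor of matrix proteases, had 0.23 ± 0.28 and 0.33 ± 0.52 (SE). Both turned slightly below 0 when 1 WT library was left out, to -0.019 without WT replicate 2 for Cd44 and -0.015 without WT replicate 1 for Timp1. Timp1 reached 1.32 without WT replicate 2, the library with 21 of its counts.

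**Figure D4:**
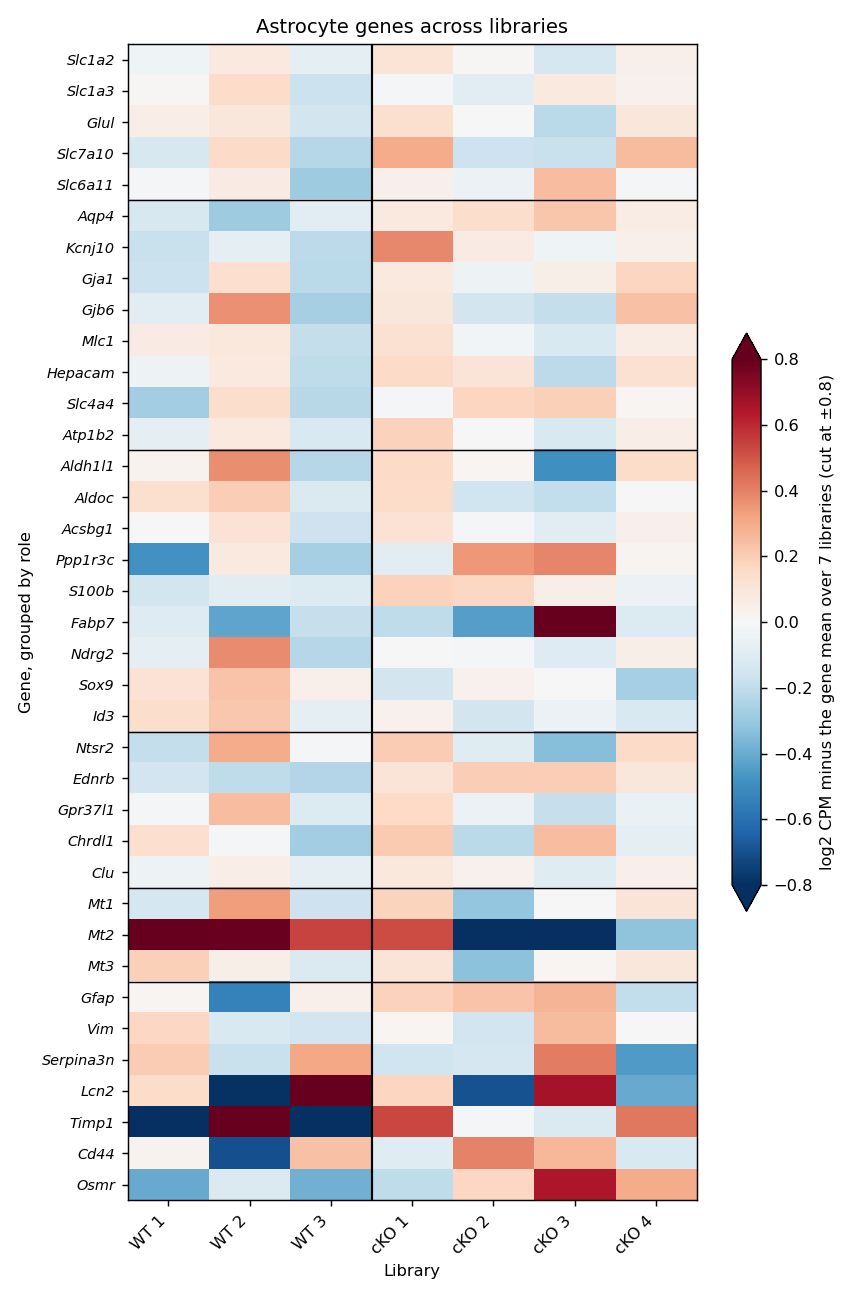
Log2 CPM minus the mean of the gene over the 7 libraries, for 37 astrocyte genes grouped by role (red above, blue below, colours cut at ±0.8). WT replicate 3 is below the mean for most resting-function genes, while Gfap and Cd44 are lowest in WT replicate 2.

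Across libraries, the summed level of the genes of resting function spread wider within WT than within cKO. Of these 27 genes, 10 were highest in WT replicate 2 and 12 were lowest in WT replicate 3. Their sum reached 11267 CPM in the former library and 9576 CPM in the latter, and the 4 cKO sums (9750 to 11253 CPM) lay between. In cKO replicate 1 another 9 of the 27 were highest. cKO replicate 3 held the highest value of 6 genes and the lowest of 8. The 7 reactive genes had another order. Their sum was lowest in WT replicate 2 (250 CPM), the library highest for resting functions, and highest in cKO replicate 3 (416 CPM). Gfap makes up most of that sum. The mean deviation of the reactive genes from their own averages was -0.23 in WT replicate 2 and 0.34 in cKO replicate 3 on the log2 scale.

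**Figure D5:**
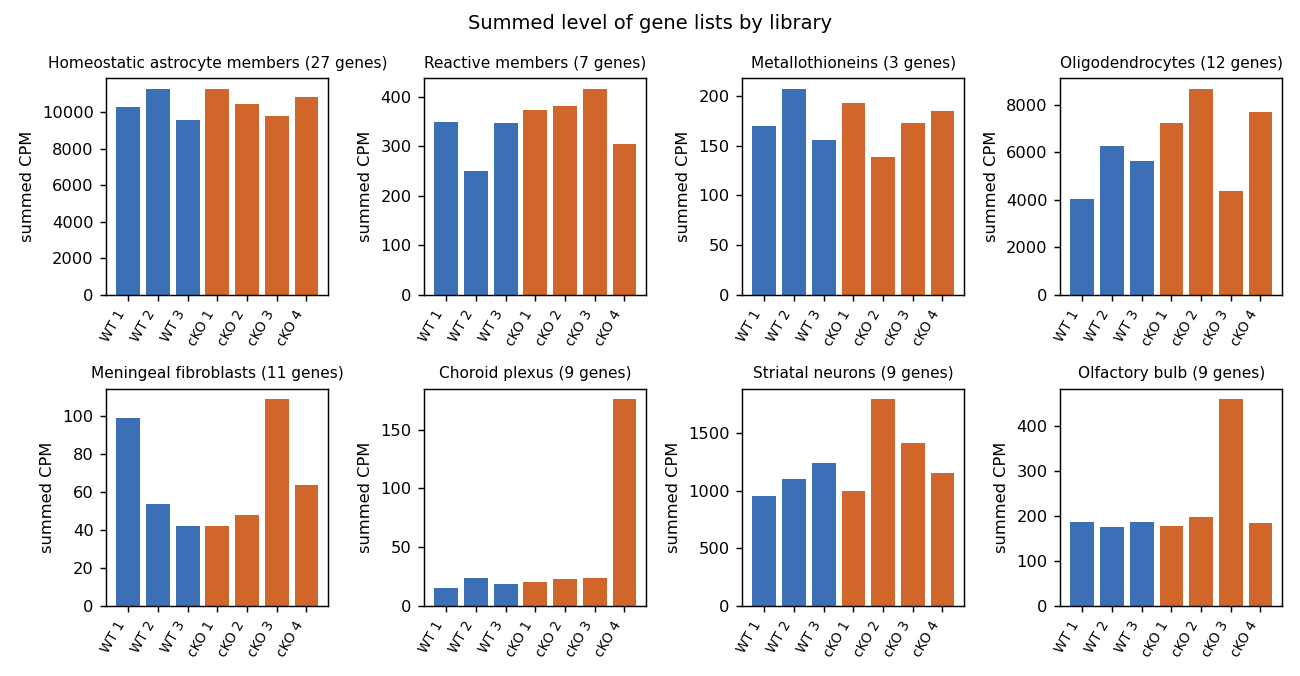
Summed CPM of gene lists in each library, WT in blue and cKO in orange, with axes from 0. The sum of the 27 resting-function genes differs little between libraries, reactive genes are lowest in WT replicate 2, and markers of choroid plexus and olfactory bulb are high in cKO replicates 4 and 3.

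Other genes of the same biology were read from further lists, here and below, also chosen with earlier results of these data known. Of 35 further genes of resting astrocytes, 0 passed the adjusted threshold in edgeR and 24 had positive values, with a median of 0.04. At an unadjusted p under 0.05, 4 had higher values in cKO (11.4%, against 4.22% of all genes) and 0 lower. Sparcl1, a synapse-forming matrix protein, and Apoe, the lipid carrier of brain, were the most abundant, at -0.02 ± 0.10 and -0.20 ± 0.13 (SE). The value of Apoe was -0.047 without WT replicate 1, -0.32 without WT replicate 3 and -0.22 with the replicate block (unadjusted p = 0.0305). Of 36 further genes of reactive astrocytes 32 passed the filter on low counts; 0 passed the threshold, 19 values were positive and 13 negative, and the median was 0.09. At an unadjusted p under 0.05, 2 of the 32 were higher (6.25%, against 4.22% of all genes) and 1 lower (2.91% of all genes were). The latter was Fkbp5, a cochaperone of the glucocorticoid receptor, at -0.23 ± 0.09 (SE). Synm, a filament protein, had 0.03 ± 0.11 (SE). Both lists had medians near 0, and only the reactive list held a gene with lower values at that unadjusted p.

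Upstream of the reactive genes stand cytokines, their receptors and STAT3. Of 19 such genes 15 passed the filter, 9 with positive and 6 with negative values and a median of 0.04, and 0 were called. The ligands Il6, Lif, Cntf and Osm were too low to be tested. Il6st, the shared receptor chain that pairs with the oncostatin M receptor, averaged 115 ± 2.39 CPM over 3 WT libraries and 132 ± 9.13 CPM over 4 cKO libraries (± SD), at 0.20 ± 0.08 (SE). Jak2, a kinase bound to such receptors, had 69.9 ± 3.21 and 81.1 ± 6.33 CPM, at 0.21 ± 0.08 (SE). For both genes each cKO library was above each WT library, with an unadjusted p under 0.05 and an edgeR adjusted p of 0.694. These 2 of the 15 genes tested (13.3%) compare with 4.22% of all genes at that unadjusted p in this direction and 3.97% with cKO above WT. Ptpn11, a phosphatase of the same receptors, and Jak1, a further receptor kinase, were the most abundant of the list and had 0.05 ± 0.09 and 0.04 ± 0.07 (SE).

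Of 10 genes of the metal response and zinc transport, all of them tested, 7 values were positive and 3 negative, with a median of 0.06, and 0 were called. At an unadjusted p under 0.05, 0 were higher and 1 lower (2.91% of all genes were): Slc30a3, which loads zinc into synaptic vesicles of neurons, averaged 113 ± 10.7 CPM over 3 WT libraries and 89.6 ± 12.2 CPM over 4 cKO libraries (± SD), at -0.34 ± 0.11 (SE; edgeR adjusted p = 0.679). Markers of excitatory neurons stood beside it: 7 of 7 had negative values, and their summed level was 5626 to 6219 CPM in WT and 4376 to 5649 CPM in cKO. Their part in the Slc30a3 value was not tested. The zinc transporter genes Slc39a10 and Slc30a4 were the most abundant and had -0.08 ± 0.08 and -0.01 ± 0.08 (SE).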

How the data were processed

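RNA of 7 motor cortex samples was sequenced. The authors deposited raw counts per gene and FPKM values; featureCounts 1.5.0-p3, DESeq2 1.20.0 and mm10 are named in the submitters' processing notes, while aligner and strand setting were not given in the sources used. FPKM, which the authors deposited beside the counts, was used for levels between genes and for alternatives. Groups came from the sample labels, and 0 value columns lacked a sample. Counts were tested in R 4.3.3 with edgeR 4.0.16 (TMM factors, filterByExpr, quasi-likelihood test, Benjamini-Hochberg adjustment over 16308 genes, threshold 0.05), checked on simulated data. Alternatives were other size factors and filters, DESeq2 1.42.0, limma 3.58.1 (voom, and trend on log2(FPKM + 1) or log2(FPKM + 0.1)), a sex covariate, a replicate block and leaving out libraries. Sex was not taken from a label: a library counted as male when its summed counts of Ddx3y, Eif2s3y, Kdm5d and Uty passed 100. The replicate block takes equal numbers as pairs, which the labels do not state. Deviations from group means of same-numbered WT and cKO samples correlated at 0.110, 0.128 and 0.122. These values do not single out such pairs, since WT replicate 2 correlated more with cKO replicate 4 (0.210). WT replicate 1 likewise correlated more with cKO replicate 3 (0.129). The members and gene lists were chosen with earlier results of these data known. Values in every library are given for 12 chosen members and for those with an unadjusted p under 0.05 or groups that do not overlap. Of each further list the members past the threshold, or failing that its 2 most abundant by mean CPM, are named; others were named after their values were seen. Promoters are from RefSeq.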

Additional observations from a re-analysis of the deposited data

Results flagged for a closer look

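In groups of 4 libraries, a value was singled out when its gap to the nearest other value, divided by the range of the group, passed the 95% limit of Dixon's test for 4 values. Chance singles out about 1 in 20 groups, and the cKO group was tested for 37 members and 11 marker lists. Fabp7 had 31.0 CPM in cKO replicate 3 and 8.18 to 10.3 CPM in the other cKO libraries. Hepacam had 80.4 CPM in the same library and 100.3 to 104 CPM in the others, while WT had 80.8 to 98.2 CPM. Summed markers of olfactory bulb neurons and ensheathing glia were at 460 CPM in cKO replicate 3 and 179 to 198 CPM in the others. Summed markers of choroid plexus were at 176 CPM in cKO replicate 4 and 20.0 to 23.2 CPM in the others.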

How the results depend on the processing

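The number of genes called (0) became 198 with no filter on low counts, 4 with DESeq2, 3 with log2(FPKM + 1) unfiltered, 2 with the replicate block, 1 without cKO replicates 3 and 4, and 0 to 3 when 1 library was left out. The number of members called stayed 0 in each of these except with no filter, where it was 2 (Ppp1r3c and Fabp7). The replicate block pairs samples by number, and cKO replicate 4, without a WT library of its number, adds nothing to its fold changes. This block called 0 members at the adjusted threshold. At an unadjusted p under 0.05 it gave 8 members with higher values in place of 6, adding Gfap and Slc4a4, and 1 with lower values. The number of members with higher values at an unadjusted p under 0.05 (6) ranged from 3 to 8 when 1 library was left out, and the number with lower values (1) from 0 to 3. The latter was 2 with upper quartile factors, library size only, the stricter filter, limma-voom, each FPKM setting and without cKO replicates 2 and 3, and 0 without cKO replicates 3 and 4. The number with higher values was 9 with no filter on low counts and 5 without cKO replicates 2 and 3. It was 5 with filtered log2(FPKM + 1), 5 with filtered log2(FPKM + 0.1) and 4 with unfiltered log2(FPKM + 1). Both pairs of cKO libraries were chosen for leaving out after seeing the data.

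Signs near 0 turned, and the cause was not tested. With 1 library left out, the log2 fold changes ranged from -0.23 to 0.063 for Aldh1l1, -0.027 to 0.054 for Slc1a2, -0.076 to 0.071 for Slc1a3, -0.15 to 0.18 for Gjb6, -0.065 to 0.065 for Glul, -0.017 to 0.83 for Fabp7, -0.16 to 0.087 for Ntsr2 and -0.061 to 0.058 for Mlc1. They ranged from -0.11 to 0.15 for Mt1, -0.14 to 0.019 for Mt3, -0.022 to 0.17 for Vim, -0.59 to 0.30 for Lcn2, -0.015 to 1.32 for Timp1, -0.019 to 0.44 for Cd44, -0.041 to 0.087 for Acsbg1, -0.15 to 0.023 for Gpr37l1, -0.0071 to 0.19 for Chrdl1 and -0.18 to 0.13 for Ndrg2. Further genes ranged from -0.088 to 0.041 (Sparcl1), -0.036 to 0.12 (Synm), -0.017 to 0.097 (Ptpn11), -0.011 to 0.071 (Jak1) and -0.061 to 0.047 (Slc30a4). Without a change of sign, values ranged from 0.076 to 0.25 (Gja1), -0.21 to -0.067 (Aldoc), 0.0088 to 0.12 (Atp1b2), 0.033 to 0.17 (Hepacam), 0.0050 to 0.066 (Clu), 0.036 to 0.24 (Slc7a10), 0.032 to 0.19 (Slc6a11), -0.30 to -0.15 (Fkbp5) and -0.15 to -0.040 (Slc39a10).

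Slc1a3 was -0.0027 with RLE factors, -0.019 with upper quartile factors, -0.0051 with library size only, -0.0029 with no filter, -0.0042 with the stricter filter, -0.0028 with DESeq2, -4.7e-06 with log2(FPKM + 1) and -0.0021 with the replicate block. Glul was -0.00075 with RLE factors and DESeq2, -0.013 with upper quartile factors, -0.0014 with no filter, -0.0015 with the stricter filter, -0.0043 with FPKM and -0.027 with the replicate block. Slc1a2 was -0.0028 with upper quartile factors, and with the replicate block Synm was -0.040 and Slc30a4 0.00066. Without cKO replicates 2 and 3 Aldh1l1 was 0.068, Gjb6 0.14, Ntsr2 0.13, Mt1 0.11, Mt3 0.051, Cd44 -0.014, Gpr37l1 0.0078, Sparcl1 0.094 and Jak1 -0.011. Without cKO replicates 3 and 4 Aldh1l1 was 0.0013, Slc1a3 -0.056, Fabp7 -0.090, Ntsr2 0.013, Vim -0.040, Gpr37l1 0.0073 and Sparcl1 0.049. Mt2, Lcn2, Timp1 and Cd44 rest on low counts.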

Other observations

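Among the 35 further genes of resting astrocytes, 4 (11.4%) had higher values at an unadjusted p under 0.05 in edgeR, against 4.22% of all genes. They were named after their values were seen. Dio2, the deiodinase that makes active thyroid hormone in glia, averaged 164 ± 9.90 CPM over 3 WT libraries and 220 ± 20.2 CPM over 4 cKO libraries (± SD), at 0.42 ± 0.09 (SE; edgeR adjusted p = 0.669). Slco1c1, a thyroxine transporter of brain vessels and astrocytes, had 0.32 ± 0.10 (SE), and Rfx4, a transcription factor of astrocytes, 0.52 ± 0.15 (SE). For these 3 genes (8.57% of the 35) each cKO library was above each WT library, as for 3.97% of all genes tested. Pdk4, a kinase that limits pyruvate oxidation, had 0.53 ± 0.24 (SE) with overlapping groups. Of the further reactive genes, Hspb1, a small heat shock protein, and Nes, the filament protein nestin, had 0.64 ± 0.26 and 0.36 ± 0.16 (SE), also with overlapping groups. The adjusted p of these genes was 0.669 to 0.696 in edgeR. In DESeq2 the smallest adjusted p among the 35 further genes of resting astrocytes was 0.0514, and 0 were called. Among the further genes of reactive astrocytes the smallest in DESeq2 was 0.655.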
